A study of Homo sapiens with 6 samples.

Results

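The genes encoding the proteins of the mitochondrial ribosome were examined after knockdown of the long noncoding RNA *SWINGN* in H226 cells. The paper describes H226, an established human line, as lung squamous carcinoma. Members were all gene names of the count table that consist of MRPL or MRPS and a number, with or without a final letter. The rule gave 73 of 17222 gene names, of which 44 were MRPL (named for the large subunit) and 29 were MRPS (named for the small subunit). The 3 ASO_CTRL libraries came from cells transfected with a control antisense oligonucleotide. The 3 ASO_LINC libraries came from cells transfected with an antisense oligonucleotide against *SWINGN*, and all were collected 48 h after transfection. The paper names 1 such oligonucleotide for this sequencing, ASO_LINC#3, so effects of its sequence and of *SWINGN* loss cannot be told apart here. The sample labels, the paper's results text and its figure legend name H226 for this sequencing. The methods text on sequencing names BJ, a fibroblast line, and H226 was followed. The labels give 1 cell line and a transient transfection and do not say whether replicates were separate cultures, so p-values measure the spread between these libraries only. The *SWINGN* transcript was not analysed here, so its depletion was not checked.

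Mitochondria carry their own genome, which encodes a small set of respiratory chain subunits and the ribosomal RNAs needed to translate them. All proteins of the mitochondrial ribosome are encoded in the nucleus, made in the cytosol and imported. Many have a counterpart in the bacterial ribosome, and others are found only in mitochondria. The small subunit decodes the messenger RNA, and the large subunit forms the peptide bond and passes the new chain to the inner membrane.

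Reads counted on genes ranged from 3686828 (ASO_LINC replicate 3) to 10546786 (ASO_CTRL replicate 3) per library. ASO_LINC replicate 3 therefore gives the least precise values. Of the squamous markers, KRT5, KRT6A and DSC3 were among the rows. Their summed level was 132 to 162 CPM (counts scaled to a common library total) in the control libraries and 90.2 to 97.3 CPM in the knockdown libraries. KRT5 and DSC3 carried this sum, with log2 fold changes of −0.58 and −0.88, and DSC3 was called lower. KRT6A had 0, 0 and 1 counts in the controls and a mean of 1.33 CPM after knockdown, too low to be tested. The other 5 of the 8 squamous markers, TP63 and KRT14 among them, were not listed. KRT8, KRT18 and KRT19 together were at 8084 to 8465 and 4923 to 8665 CPM. All 4 mesothelial markers were present, and their sum was 634 to 834 CPM in the controls against 209 to 323 CPM after knockdown. *CALB2* carried most of this sum and was called lower, from 601 ± 91.7 to 154 ± 47.6 CPM (SD, n = 3), while *UPK3B*, *WT1* and *MSLN* had log2 fold changes of −0.92, −0.32 and 0.06, with overlapping groups for the last pair. In every library the mesothelial sum was above the squamous sum, although the paper names the line squamous. CD14 was the 1 leukocyte marker of 4 in the table, at 0.735 to 2.17 CPM, and none of 3 endothelial markers was listed. The part of these marker differences between conditions in the results below was not tested.

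The promoters of the members are shown because these genes were, for the most part, lower after knockdown. RefSeq sequences (GRCh38.p14) from 250 bases before to 50 after an annotated start were matched for 65 of the 73 members, 1 of them by a newer symbol. The letters AAGATGGC, the core of the binding site of the transcription factor YY1, were searched on both strands. They lay in 19 of the 65 promoters (29.2%), against 3.03% of all 27305 promoters and 5.66% of the 8820 promoters of tested genes. MRPL and MRPS promoters held them about equally often, with 11 of 37 and 8 of 28. Of the 20 matches in members, 14 lay on the sense strand between 8 and 35 bases after the start (70% of member matches, against 43.8% of the 865 matches in all promoters that were on the sense strand after the start). The letters contain ATG, and whether these matches lay at start codons of the proteins was not tested. The following windows hold such matches in capitals, for the member with the highest change (MRPS30), one of the lower ones (MRPL45), one whose name and place in the structure differ (MRPS18A) and a pair of highly expressed ones (MRPL20 and MRPL51).
MRPS30 (chr5:44808949-44808978, plus strand): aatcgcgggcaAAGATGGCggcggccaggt
MRPL45 (chr17:38297170-38297199, plus strand): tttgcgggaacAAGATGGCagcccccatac
MRPS18A (chr6:43687764-43687793, minus strand): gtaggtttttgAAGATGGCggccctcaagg
MRPL20 (chr1:1407260-1407289, minus strand): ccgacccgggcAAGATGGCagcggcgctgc
MRPL51 (chr12:6493223-6493252, minus strand): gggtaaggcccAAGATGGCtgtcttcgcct

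The letters of nuclear respiratory factor 1 (GCGCATGC or GCGCACGC), an activator of nuclear genes for mitochondrial proteins, lay in 11 member promoters (16.9%, against 6.45% of all promoters and 11.6% of those of tested genes). The ETS letters CCGGAAGT were in 13.8% of member promoters, against 4.44% and 9.33%, and the E-box CACGTG in 10.8%, against 7.43% and 10.4%. The letters searched for ATF4 (TGATGCAA) and AP-1 (TGACTCA) were in 0 of the 65 windows, against 0.923% and 4.92% of all promoters and 0.385% and 3.17% of those of tested genes. The YY1 letters were in 2 of 13 promoters of members with a log2 fold change below −0.5 and in 5 of 20 promoters of members above −0.2. MRPL17, whose level was nearly the same in both conditions, held several of the NRF1 letters, here in capitals where 2 matches overlap.
MRPL17 (chr11:6683403-6683432, minus strand): caggctctgatGCGCATGCGCaaacacgtt

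MRPL24 is shown separately, since it was the only member past the thresholds. The 120 bases before its start hold a stretch of 16 bases at 2 places, in capitals, which was noticed after the sequence was seen. The stretch occurred in 19 of all promoters (0.0696%) and in no other member promoter.
MRPL24 (chr1:156741089-156741208, minus strand): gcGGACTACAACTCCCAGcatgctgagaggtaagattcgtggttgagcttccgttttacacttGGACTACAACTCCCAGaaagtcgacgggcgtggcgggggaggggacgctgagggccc

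These matches describe letters in a window, and no binding was measured in these libraries.

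Most mitochondrial ribosomal protein genes were lower in the knockdown libraries by a modest amount, and 1 passed the thresholds. Of the 72 members that passed edgeR's filter on low counts, 58 (80.6%) had a negative log2 fold change, as had 50.3% of all 14660 tested genes. Their median log2 fold change was −0.28, against 0.00 over all tested genes, with the middle 50% of the members between −0.43 and −0.12. The members took 0.620%, 0.627% and 0.643% of the counts on genes in the control libraries and 0.542%, 0.536% and 0.550% in the knockdown libraries. The lowest control share was thus above the highest knockdown share. In these bulk samples, fewer cells of a kind and less RNA per cell cannot be told apart.

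A call required a log2 fold change beyond 0.5 together with an adjusted p-value under 0.01, in edgeR's quasi-likelihood test with Benjamini-Hochberg adjustment over all tested genes. By this rule 1 of 72 members fell and 0 rose, where 2.63% of all tested genes were called lower and 4.91% higher. At an unadjusted p-value below 0.05, 22 members were lower and 1 was higher, where 15.3% of all tested genes were lower and 17.1% higher. At an adjusted p-value below 0.05 with no bound on the size, 11 members were lower and 0 were higher, where the share of all tested genes was 7.78% lower and 10.3% higher. In 23 members every knockdown library was below every control library, and in 0 every one was above (17.3% and 18.7% of all tested genes). By size, 14 members were below −0.5 and 35 lay between −0.5 and −0.2. A further 20 were within 0.2 of 0. Measured against the mean of the controls, 41 members were lower in all 3 knockdown libraries and 2 were higher in all 3, whereas each pattern held for 28.6% of all tested genes.

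**Figure D1:**
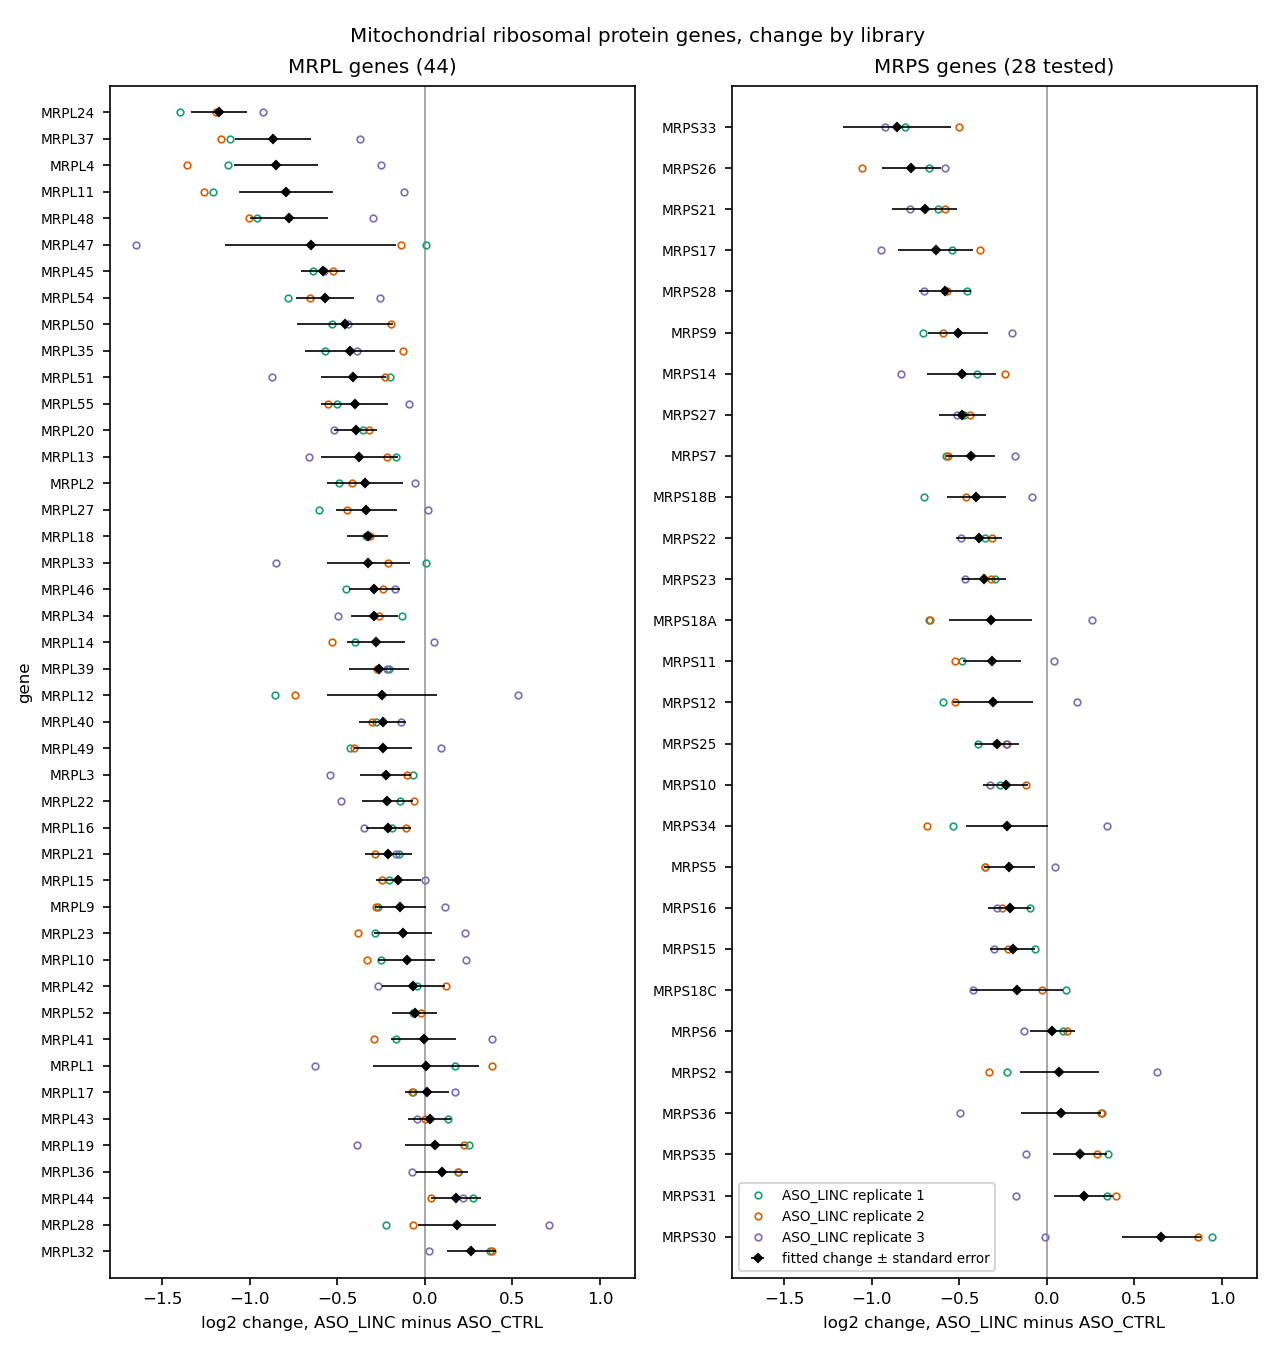
Log2 change of each tested member, MRPL genes on the left and MRPS genes on the right, ordered by the fitted change. Diamonds with bars are edgeR's fitted change and its standard error, and open circles are single ASO_LINC libraries against the mean of the 3 controls. Most diamonds lie left of 0, from MRPL24 at −1.18 to MRPS30 at 0.65, and the circles of replicate 3 often stand apart from those of replicates 1 and 2.

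*MRPL24*, the counterpart of a bacterial protein that starts the assembly of the large subunit, fell most. It lies on chromosome 1 of GRCh37 from 156707095 to 156711382, with no exon shared with another annotated gene. Its level was 105, 108 and 86.9 CPM in the control libraries and 37.6, 43.5 and 52.3 CPM in the knockdown libraries. The 2 groups were well apart, and the change was of similar size in all 3 knockdown libraries. On the log2 scale the change was −1.18 with a standard error of 0.16 (edgeR, adjusted p = 0.000838), so that the level fell by 55.7%. It kept its call in each fit that left out 1 library, with log2 fold changes from −1.30 to −1.06.

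Among other proteins of the large subunit, *MRPL37*, which has no bacterial counterpart, was at 78.8, 99.98 and 71.5 CPM in ASO_CTRL and at 38.1, 36.6 and 63.7 CPM in ASO_LINC. This gave a log2 fold change of −0.87 with a standard error of 0.22 (edgeR, adjusted p = 0.0211). Exons of *MRPL37* overlap *CYB5RL* and *SSBP3* on the opposite strand, whose log2 fold changes were −1.10 and −0.58, and without a stated strand setting their reads cannot be told apart. *MRPL4*, which lines the tunnel through which the new chain leaves, was at 102, 107 and 102 CPM in ASO_CTRL and at 47.5, 40.2 and 87.0 CPM in ASO_LINC. The fitted change was −0.85 on the log2 scale, with a standard error of 0.24 (edgeR, adjusted p = 0.034). *MRPL11*, at the base of the stalk that recruits translation factors, was at 92.4, 76.2 and 89.7 CPM in ASO_CTRL and at 36.9, 35.6 and 78.9 CPM in ASO_LINC. In these genes replicates 1 and 2 of the knockdown were far below the controls, and replicate 3 was nearer to them. For *MRPL11* it lay within the control range, and the log2 fold change of −0.79 had an adjusted p of 0.0629. Without that replicate the values of *MRPL4* and *MRPL11* were −1.24 and −1.25, and both were called.

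Of the small subunit, *MRPS33*, a protein specific to mitochondria, had the lowest log2 fold change at −0.86, with a standard error of 0.31 (edgeR, adjusted p = 0.0779). Its level was 43.8, 16.7 and 24.1 CPM in ASO_CTRL and 14.7, 18.3 and 13.6 CPM in ASO_LINC, so the groups overlapped and 1 control library was far above the others. Without ASO_CTRL replicate 1 the value was −0.40. A further pair of members stood out for the small spread of their libraries and were chosen after their values were seen. *MRPS26*, which is also specific to mitochondria, was at 32.2, 30.3 and 29.5 CPM in ASO_CTRL and at 19.1, 14.6 and 20.3 CPM in ASO_LINC, with a log2 fold change of −0.77 and an adjusted p of 0.0103 in edgeR's test. *MRPL45*, which sits at the tunnel exit next to the inner membrane, was at 70.2, 71.8 and 64.5 CPM in ASO_CTRL and at 44.1, 47.8 and 46.1 CPM in ASO_LINC. Its log2 fold change was −0.58 and its adjusted p was 0.011 in the same test. Both missed the adjusted threshold narrowly, and in both the groups did not overlap.

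At the other end, *MRPS30*, a protein named for the small subunit that lies in the large one, had the highest log2 fold change at 0.65, with a standard error of 0.23 (edgeR, adjusted p = 0.0685). It was at 78.4, 68.5 and 91.2 CPM in ASO_CTRL and at 152, 144 and 78.1 CPM in ASO_LINC. Replicates 1 and 2 of the knockdown were above every control library, whereas replicate 3 was within their range. *MRPL32*, a counterpart of a bacterial large subunit protein, was at 223, 242 and 271 CPM in ASO_CTRL and at 317, 319 and 249 CPM in ASO_LINC, a log2 fold change of 0.27 with overlapping groups. *MRPS31*, *MRPS35* and *MRPL28* followed with 0.21, 0.19 and 0.18, and none of these 3 passed the test. The values nearest 0 were those of *MRPL1* (0.01), *MRPL41* (−0.01) and *MRPL17* (0.01). *MRPS18A*, which also lies in the large subunit, had −0.32, but −0.68 without ASO_LINC replicate 3, where it was called, and −0.15 and −0.16 without replicates 1 and 2. *MRPS36*, which is known as a subunit of the oxoglutarate dehydrogenase complex and not of the ribosome, had 0.08.

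**Figure D2:**
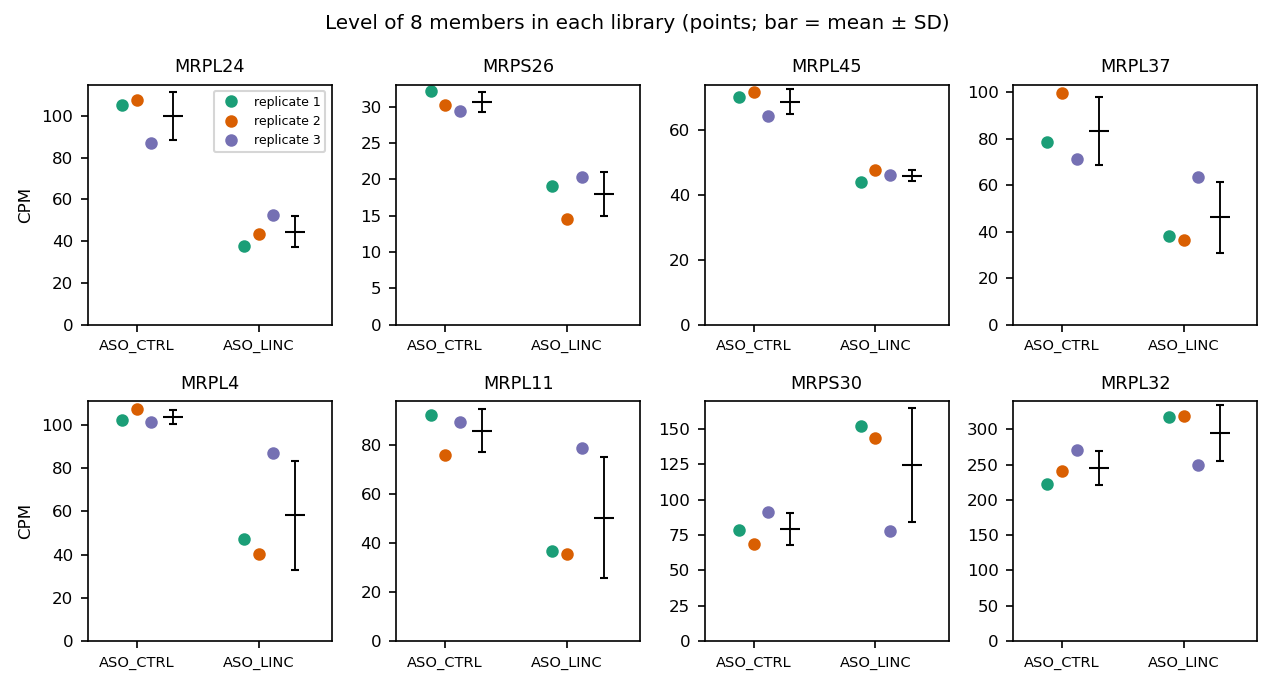
CPM of 8 members in the 3 ASO_CTRL and 3 ASO_LINC libraries, with the mean and SD as a bar beside each group. Colours give replicate numbers, which were not taken to pair libraries. In MRPL24, MRPS26, MRPL45, MRPL37 and MRPL4 all knockdown libraries lie below all controls, while in MRPL11, MRPS30 and MRPL32 the third knockdown library lies within the control range.

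Levels of different members were compared per kilobase of transcript in the control libraries. *MRPL20*, *MRPL32* and *MRPL51*, all of the large subunit, were the highest, at 308 ± 19.3, 285 ± 28.4 and 267 ± 36.5 CPM per kilobase (SD, n = 3), and these 3 neighbours did not differ beyond their spread. Of the tested members, *MRPL42*, *MRPL50*, *MRPL1* and *MRPS33* were the lowest, at 1.31 ± 0.20, 2.08 ± 0.68, 6.05 ± 1.82 and 6.70 ± 3.32 CPM per kilobase (SD, n = 3), and the last pair did not differ beyond their spread. The annotated transcripts of *MRPL42*, *MRPL50*, *MRPL1* and *MRPS33* have 15557, 3336, 1175 and 4210 bases, against a member median of 1242. In CPM without this scaling, *MRPL42* and *MRPS33* were at 20.45 and 28.2, above *MRPL50* and *MRPL1* at 6.94 and 7.10. The order thus rests partly on these lengths, and whether counts scaled with length was not tested. The median level was 64.5 CPM per kilobase over the large and 33.6 over the small subunit. *MRPL20* and *MRPL51* had log2 fold changes of −0.40 (adjusted p = 0.0478 in edgeR's test) and −0.41, and *MRPL50* and *MRPL42* of −0.45 and −0.07. That of *MRPL50* was −0.18 without ASO_CTRL replicate 1, and that of *MRPL51* was −0.22 without ASO_LINC replicate 3. *MRPS24* did not pass the filter, at 0.811 ± 0.0487 CPM in ASO_CTRL and 1.37 ± 0.466 CPM in ASO_LINC (SD, n = 3), and per kilobase its control level was 1.22 CPM. Its exons are shared with the readthrough gene URGCP-MRPS24. Across the 72 tested members the log2 fold change had a Pearson correlation of 0.103 with the log2 control level and of 0.037 with log2 transcript length. The points of each correlation share the same 6 libraries.

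The large and the small subunit were then compared, as the question was whether they moved alike. Of 44 MRPL genes, 36 had a negative log2 fold change, 1 was called lower and 7 had an adjusted p below 0.05, all lower. Of 28 tested MRPS genes, 22 had a negative log2 fold change, 0 were called and 4 had an adjusted p below 0.05, all lower. At an unadjusted p below 0.05, the counts were 9 lower MRPL genes and, for MRPS, 13 lower and 1 higher, beside the 15.3% and 17.1% of all tested genes given above. The median log2 fold change was −0.25 for MRPL and −0.31 for MRPS. The difference of these fitted medians was 0.06. Taken instead in each knockdown library, the difference of medians had an SD of 0.05 over the 3 libraries. These libraries share the same control mean, so that SD leaves out the spread of the controls. Without ASO_CTRL replicate 1 the difference of fitted medians was 0.13, and without ASO_LINC replicate 2 it was −0.02. Its direction thus depended on 1 library. In single knockdown libraries the medians were −0.23, −0.27 and −0.19 for MRPL and −0.40, −0.34 and −0.26 for MRPS.

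The summed level of the MRPL genes was 3976, 3891 and 4024 CPM in ASO_CTRL and 3387, 3342 and 3463 CPM in ASO_LINC. That of the MRPS genes was 2414, 2294 and 2442 CPM in ASO_CTRL and 2010, 1987 and 2037 CPM in ASO_LINC. Both sums were lower in every knockdown library than in any control library. The ratio of the MRPL to the MRPS sum was 1.66 ± 0.0280 in ASO_CTRL and 1.69 ± 0.0102 in ASO_LINC (SD, n = 3), and the single values overlapped. When *MRPS30* and *MRPS18A* were counted with the large subunit, where their proteins lie, and *MRPS36* was left out, the ratio was 1.81, 1.85 and 1.81 in ASO_CTRL and 1.98, 1.97 and 1.89 in ASO_LINC. These values did not overlap, and without *MRPS30* they were 1.77, 1.82 and 1.77 against 1.89, 1.89 and 1.85. The mean log2 CPM of large minus small subunit genes in this grouping was −0.18 ± 0.02 in ASO_CTRL and −0.12 ± 0.03 in ASO_LINC (SD, n = 3), whereas in the grouping by name it was −0.09 ± 0.03 and −0.10 ± 0.05. The ratio of sums and the mean difference thus depended on where these 3 proteins were counted, while the difference of median log2 fold changes was 0.06 in both groupings. The ratios are a description and were not tested, and the smallest two-sided p-value of an exact permutation test of 3 libraries against 3 is 0.1.

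**Figure D3:**
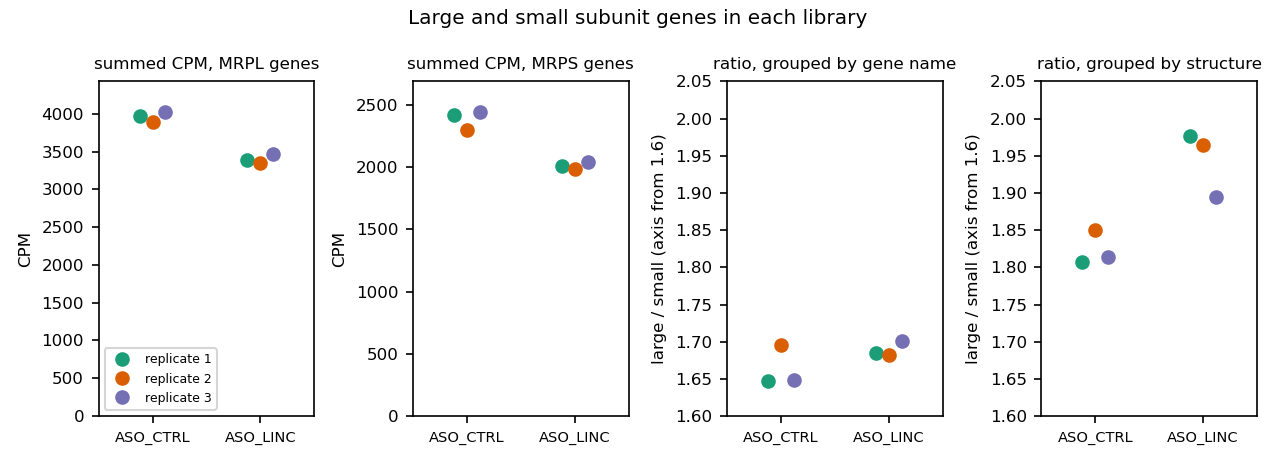
Summed CPM of MRPL and MRPS genes and the ratio of large to small subunit sums in each library, with points coloured by replicate number. The ratio is shown by gene name and by place in the structure, on an axis that starts at 1.6. Both sums are lower in all 3 knockdown libraries, and the ratios of the conditions overlap by name (1.65 to 1.70 in ASO_CTRL and 1.68 to 1.70 in ASO_LINC) but not by structure.

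Proteins with a bacterial counterpart and those specific to mitochondria had similar medians, −0.26 over 44 and −0.29 over 27 tested members. Within the large subunit, by structure, these were −0.24 and −0.26, and within the small subunit −0.31 and −0.37. Exons of 38 members overlap those of another annotated gene, and for 19 that gene is in the table. Among them, *MRPL11* overlaps *PELI3* (log2 fold change −0.32) and *MRPL51* overlaps *NCAPD2* (−0.33), both on the opposite strand. *NCAPD2* had changes of −0.01, −0.21 and −0.90 in the 3 knockdown libraries, and *MRPL51* had −0.20, −0.23 and −0.87. As for *MRPL37*, such reads cannot be told apart without a stated strand setting. The median was −0.29 for the 37 tested members with such an overlap and −0.24 for the 35 without.

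GC content moved with the changes of single libraries in opposite directions. Over the 72 tested members, the log2 change had a Pearson correlation with transcript GC content of −0.421 in ASO_LINC replicate 1, −0.529 in replicate 2 and 0.555 in replicate 3. Among the controls, the deviation of ASO_CTRL replicate 2 from the control mean had a correlation of 0.599. Each correlation is a description over genes measured in the same libraries. In the 34 members above the median GC content, median changes were −0.44, −0.41 and −0.07 in the 3 knockdown libraries, and in the other 38 they were −0.20, −0.21 and −0.41. All 6 medians were negative. The 16 members that were lower in replicates 1 and 2 but higher in replicate 3 had a median GC content of 56.3%, and the 9 with the opposite pattern had 40.2%. *MRPL12*, a stalk protein, is an example of the first kind, with changes of −0.86, −0.74 and 0.53, and *MRPS36* of the second, with 0.31, 0.31 and −0.49. *MRPL18*, by contrast, had −0.33, −0.31 and −0.33.

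A fit corrected for GC content and transcript length gave a median log2 fold change of −0.23 over the members and −0.01 over all tested genes. After it, 5 members were called lower (*MRPL24*, *MRPL37*, *MRPL4*, *MRPL45* and *MRPS27*) and 0 higher, where 4.91% of all tested genes were called lower and 6.98% higher. The correlations with GC content were then −0.075, −0.127 and 0.262. Without ASO_LINC replicate 3, 16 members were called lower and 1 higher, *MRPS30*, where 7.81% of all tested genes were called lower and 9.42% higher. Of these 16, 10 are in the large and 6 in the small subunit, by structure, and 7 are among the 11 members at an adjusted p below 0.05 with all libraries. Over the 72 tested members, the uncorrected changes of replicates 1 and 2 had a Pearson correlation of 0.937. Those of replicate 3 had correlations of 0.071 and 0.035 with them. After the GC content and length correction, the values were 0.93, 0.361 and 0.41. All of these changes share the same control mean. Why replicate 3 differed was not tested.

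**Figure D4:**
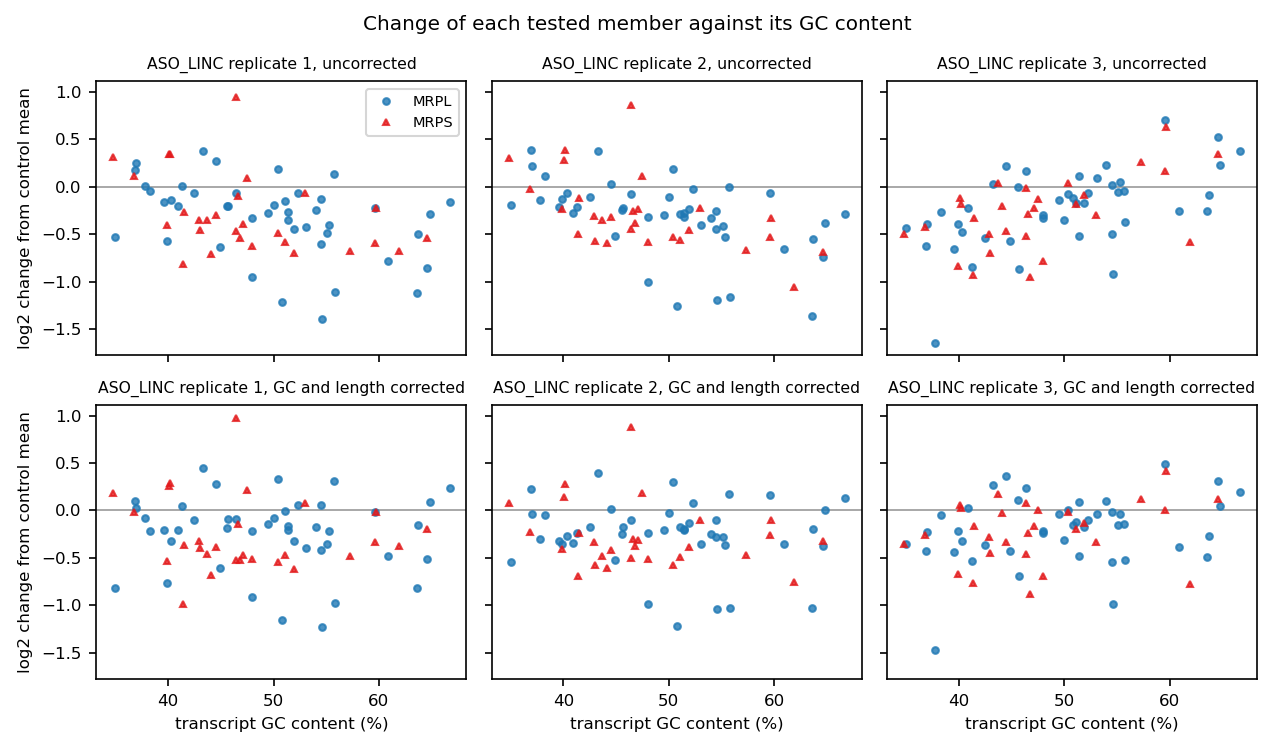
Log2 change of each tested member from the control mean against the GC content of its transcript, in the 3 knockdown libraries, before (top) and after (bottom) correction for GC content and length. Before correction the points slope down in replicates 1 and 2 (Pearson r of −0.421 and −0.529) and up in replicate 3 (0.555), and after it they lie flatter, with most points still below 0.

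The mitochondrial ribosome also contains proteins without an MRP name. Of 7 tested genes of this kind, 5 had a negative log2 fold change and 0 were called, with a median of −0.35. The small subunit proteins *PTCD3* and *CHCHD1* had −0.49 (adjusted p = 0.0276) and −0.42 (adjusted p = 0.0371 in edgeR's test), and in both the groups did not overlap. *DAP3*, a GTP-binding protein of the small subunit that is also linked to cell death, was chosen after its values were seen. It was at 165, 155 and 180 CPM in ASO_CTRL and at 221, 218 and 201 CPM in ASO_LINC, a log2 fold change of 0.36 (adjusted p = 0.0669), with every knockdown library above every control.

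Genes that act with the ribosome were described in the same way. Of 25 tested assembly and rRNA modification factors, 15 had a negative log2 fold change and 0 were called, with a median of −0.09. *MALSU1*, which keeps the subunits of an immature ribosome from joining, was lowest by p-value, with −0.63 (adjusted p = 0.0444), and *WBSCR16*, also an assembly factor, followed with −0.43 (adjusted p = 0.0637). Of 15 translation factors and mRNA-binding proteins, 11 had a negative log2 fold change and 0 were called, with a median of −0.26. At an adjusted p below 0.05 in edgeR's test, 2 were lower and 1 was higher, beside 7.78% and 10.3% of all tested genes. *SLIRP*, which with LRPPRC stabilises mitochondrial mRNAs, was at 187, 53.5 and 85.8 CPM in ASO_CTRL and at 37.5, 36.1 and 42.8 CPM in ASO_LINC. Its log2 fold change was −1.49 with an adjusted p of 0.0179 in edgeR's test, and its control libraries differed more from each other than its knockdown libraries did. Without ASO_CTRL replicate 1 it was −0.85, and without replicate 2 it was −1.81 and called. *MRRF*, which recycles ribosomes after termination, had −0.57 (adjusted p = 0.0146).

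Genes of mitochondrial DNA transcription and replication had a median of −0.01 over 9 tested, with 0 called. *POLG*, the mitochondrial DNA polymerase, and *SSBP1*, its single-strand binding partner, had 0.24 and −0.31, and −0.0833 for *SSBP1* without ASO_CTRL replicate 1. *POLG* ranged from 0.11 without ASO_CTRL replicate 3 to 0.40 without ASO_CTRL replicate 1. Of 8 regulators of nuclear genes for mitochondrial proteins, 4 were lower, 4 were higher and 0 were called. *NRF1* had −0.74 (adjusted p = 0.0852) from low levels of 6.34 ± 0.714 and 3.74 ± 1.14 CPM (SD, n = 3), and *MYC* had 0.57 (adjusted p = 0.0144).

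The products that the ribosome contains or translates were measured less evenly. The large subunit rRNA *MT-RNR2* was at 7291, 2779 and 3612 CPM in ASO_CTRL and at 2159, 2133 and 1944 CPM in ASO_LINC, a log2 fold change of −1.13 (adjusted p = 0.0202 in edgeR's test). The small subunit rRNA *MT-RNR1* had −0.31 with overlapping groups. ASO_CTRL replicate 1 was the highest control, and without it the values were −0.62 for *MT-RNR2* and −0.0038 for *MT-RNR1*. Without ASO_CTRL replicate 2, *MT-RNR2* had −1.38 and was called. Complementary DNA was primed with oligo-dT, which selects for RNAs with a stretch of A. Of 13 mitochondrial mRNAs, 9 were lower and 1 fell, *MT-CO3*, with −1.13 (adjusted p = 0.000567). Of 74 tested nuclear genes of the respiratory chain, 67 had a negative log2 fold change, 6 fell and 0 rose, with a median of −0.34. These included *ATP5G1* with −1.19 and *ATP5G2* with −0.82, which encode the c subunit of ATP synthase, *UQCRQ* of complex III with −0.74 and *NDUFA2* of complex I with −0.63. Of 81 cytosolic ribosomal protein genes, 55 had a negative log2 fold change, 2 fell (*RPS13*, −1.14, and *RPS7*, −0.68) and 0 rose, with a median of −0.14. When single libraries were left out, *ATP5G2* and *NDUFA2* each lost the call without any one library other than ASO_LINC replicate 3, with adjusted p-values up to 0.0417 and 0.0403 in edgeR's test. *UQCRQ* and *RPS7* lost it when replicate 1 or 3 of the controls, or replicate 1 or 2 of the knockdown, was omitted, with adjusted p-values up to 0.0219 and 0.0256. The 2.63% and 4.91% of all tested genes called lower and higher are the background of these counts too.

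**Figure D5:**
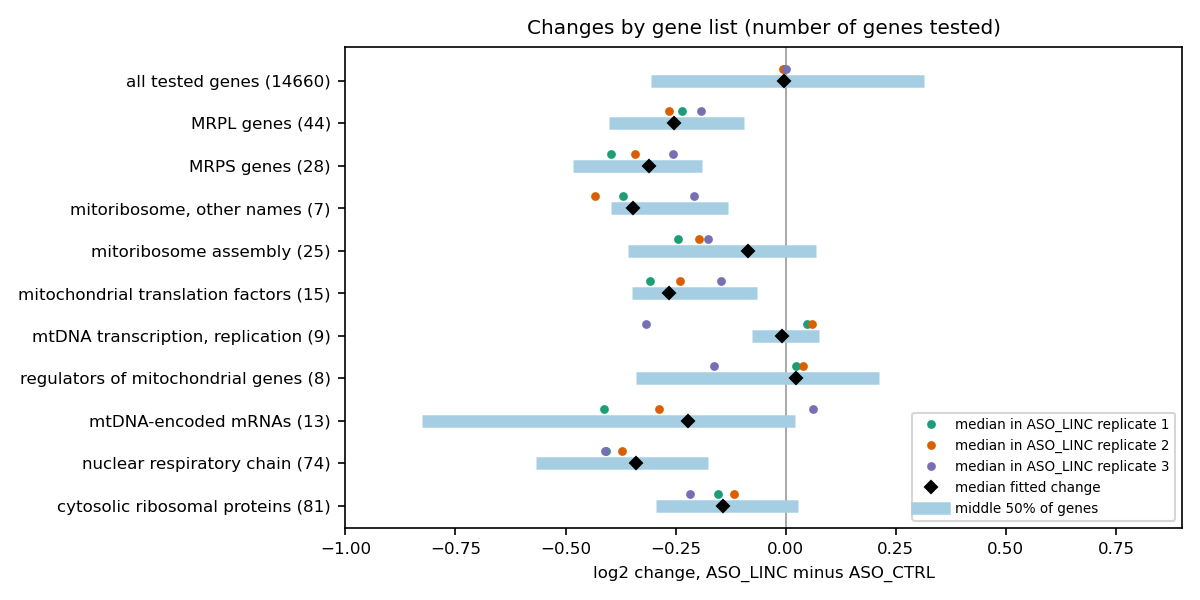
Median log2 change (diamonds) and the middle 50% of genes (bars) of the members, related gene lists and all tested genes, with the median in each knockdown library as coloured points. The medians of MRPL genes (−0.25), MRPS genes (−0.31) and nuclear respiratory chain genes (−0.34) lie left of that of cytosolic ribosomal proteins (−0.14) and of all tested genes.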

How the data were processed

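Reads were mapped by the authors with STAR (genome hg19), and the deposited table holds unnormalized counts of reads per gene. Which tool, gene annotation and strand setting produced the counts is not given in the sources used here. Reads on no gene entered neither library sizes nor tests. They were 24.8%, 26.3% and 25.1% of the ASO_CTRL libraries and 28.0%, 28.1% and 27.9% of the ASO_LINC libraries. These shares did not overlap, and their part in the results was not tested. The deposited counts of 3 ASO_LINC and 3 ASO_CTRL libraries were compared with edgeR 4.0.16 under R 4.3.3 (TMM, filterByExpr, quasi-likelihood F-test, no block, the study's thresholds) on all 14660 genes that passed, with a common biological coefficient of variation of 0.159. Uncorrected library changes are log2 CPM (prior count 2) minus the control mean. Corrected library changes were taken in the same way, but with a smaller fixed amount added to each count. The correction used splines (5 df) of GC content and length, known for 87.1% of tested genes from a GENCODE annotation lifted to GRCh37, with 956 names matched by an older symbol. Same-condition libraries differed beyond sampling noise (chi-square per df 2.5 for ASO_LINC replicates 1 and 2, and 6.94 to 14.0 for the other pairs). Named genes follow a rule: called members, the 5 highest and 5 lowest changes with a mean of at least 50 counts, the 3 highest and lowest levels per kilobase over all libraries, the 3 nearest 0, members whose name and place differ or that failed the filter, and the 4 called genes of a list with the smallest p, or 2 where none was called. *MRPL12*, *MRPL18*, *MRPS27*, *CYB5RL*, *SSBP3*, *PELI3*, *NCAPD2* and *DAP3* were named after their values were seen. The members and lists were chosen with earlier results of these data known. Alternatives included DESeq2 1.42.0, limma-voom (limma 3.58.1), other scalings and filters, a block and leaving out each library. For the ratio of sums, leaving *MRPS30* out and grouping by gene name were added after seeing the data. For the medians, grouping by name was planned.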

Additional observations from a re-analysis of the deposited data

How the results depend on the processing

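Counts of members called lower were 6 with DESeq2, 2 with limma-voom, 3 with upper quartile scaling, 5 with the GC content and length correction, 3 with that correction and the replicate block, and 9 at an adjusted p of 0.05 with the same bound on size, against 1 in the reported fit. Of all tested genes, the same settings called 4.32%, 3.02%, 2.94%, 4.91%, 3.11% and 7.11% lower, against 2.63%. Leaving out 1 library gave 1 to 16 members lower (16 without ASO_LINC replicate 3, 2 without ASO_CTRL replicate 2) and 0 to 1 higher, where 7.81% and 1.12% of all tested genes were called lower in those 2 fits and 0.741% to 1.02% in the others. The median of MRPL genes was −0.21 with the correction, −0.21 with the correction and the block, and −0.28 to −0.18 without 1 library. The difference of medians, large minus small, ranged from −0.0151 (without ASO_LINC replicate 2) to 0.13 (without ASO_CTRL replicate 1) without 1 library. The change in the ratio of sums was 0.0253 by gene name. Among genes near 0, signs reversed for *MRPL1* (−0.0428 with the correction, −0.0271 with correction and block, −0.0112 with upper quartile scaling), *MRPL17* (−0.0082 with upper quartile scaling), *MRPL41* (0.1847 with the correction, 0.19 with correction and block, 0.0061 with library size only, 0.0007 with no filter) and *MRPS36* (−0.0238 with the correction, −0.0299 with correction and block). Without 1 library, *MRPL1* ranged from −0.19 to 0.20, *MRPL17* from −0.0693 to 0.057, *MRPL28* from −0.14 to 0.36, *MRPL41* from −0.23 to 0.12, *MRPL42* from −0.16 to 0.0666, *MRPS31* from 0.11 to 0.36, *MRPS35* from 0.0997 to 0.32 and *MRPS36* from −0.0539 to 0.28. The cause of these differences was not tested. With the replicate number as a block, 1 member was called lower, as without it (1.48% of all tested genes), and *ATP5G2*, *NDUFA2*, *RPS7* and *UQCRQ* lost their calls (adjusted p = 0.0153, 0.026, 0.0129 and 0.0127 in edgeR's test). Deviations of same-numbered libraries had correlations of 0.059, −0.149 and −0.180, so the numbers were not taken to pair the libraries. Depth limits the weakest members most, above all in ASO_LINC replicate 3.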

Other observations

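The table also lists 14 pseudogene names of these genes, which are not members. *MRPS16P1* was the 1 called lower, with 46, 34 and 66 counts in ASO_CTRL and 17, 10 and 11 counts in ASO_LINC and a log2 fold change of −1.38 (edgeR, adjusted p = 0.0059). Its parent *MRPS16* had −0.21 (adjusted p = 0.256). Reads of a gene and its near-identical copy can be divided between them in counting, so both values are uncertain. Of the genes whose exons overlap those of a member, *MIF4GD*, opposite *MRPS7*, fell by 1.34 on the log2 scale (adjusted p = 0.00075 in the same test), while *MRPS7* had −0.44 (adjusted p = 0.0547).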
